A study of Rattus norvegicus with 10 samples.

Results

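The caveolin and cavin genes of the rat were examined as a set of 6: the caveolins Cav1 and Cav2, the cavins Cavin1, Cavin2 and Cavin3, and the caveola neck ATPase gene Ehd2. Every probeset with a single gene symbol equal to one of these names was taken, which gave 10 of the 31099 probesets on the array and 5 of the 6 genes, since none carried the symbol Cavin1. Cav1 had 3 probesets, Cav2 had 4, and Cavin2, Cavin3 and Ehd2 had 1 each. Cavin3 drew attention to this family because it ranked among the genes with the lowest p between the diets in earlier work on these same arrays. Its diet difference is therefore described below without a test, and so are those of its relatives in the same contrast.

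RNA came from pancreatic islets of male Wistar rats aged 7 weeks, housed singly, that had eaten standard chow, with fat at 8% of calories, or a cafeteria diet, with fat at 66% of calories, for 10 days. Each diet had 5 arrays of the Affymetrix Rat Genome 230 2.0 type, each with an independent sample of islets freed by collagenase, separated on a gradient and picked by hand. The labels of all 10 samples conflict: 3 fields (title, source name, description) give the diet used here and 1 field, the diet characteristic, gives the other diet. The titles were followed, and every direction below would turn if that 1 field were right. The insulin probesets lay near the top of the range, with a mean signal of 18693 for Ins1 in the standard group. Probesets of blood vessel and connective tissue genes also gave signal: Pecam1 averaged 666 and the brightest Col1a1 probeset 704 in the standard group.

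Caveolae are flask-shaped pits of the plasma membrane, abundant in endothelial cells, adipocytes, fibroblasts and muscle cells. Caveolins insert into the inner leaflet and oligomerise, and cavins assemble from the cytosol into a coat over them. Cavin1 is needed for the pit to form, Cavin2 helps to shape the membrane, Cavin3 binds protein kinase C delta and acts in signalling and trafficking, and Ehd2 holds the neck of the pit to the surface. In islet tissue these genes can be read from vessels and stroma as well as from endocrine cells, and in bulk RNA fewer cells of a type and less RNA per cell cannot be told apart.

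Cavin3 was higher in islets of the cafeteria group. Its probeset (1367691_at) read 847, 865, 813, 858 and 968 in standard replicates 1 to 5. In the cafeteria group it read 1148, 1156, 1079, 1197 and 1443 in replicates 1 to 5. All 5 cafeteria signals lay above all 5 standard signals, and the highest reading in each diet came from replicate 5. The group means were 870.0 ± 58.1 (SD, n = 5) and 1205 ± 140 (SD, n = 5). On the log2(signal + 14.15) scale the difference was 0.46 with an SE of 0.0915, or 1.37-fold. Across the 18625 probesets that passed a filter on low signals, 3.71% had a larger absolute difference, and 0.988% had all cafeteria signals above all standard signals. By limma with Benjamini-Hochberg adjustment, 0 of the 18625 probesets had an adjusted p under 0.05 (0%), against 1941 (10.4%) with an unadjusted p under 0.05. The gap between the diets was 0.155 on the log2 scale; after centring each array on its median the diets overlapped, by 0.023, with a difference of 0.42.

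**Figure D1:**
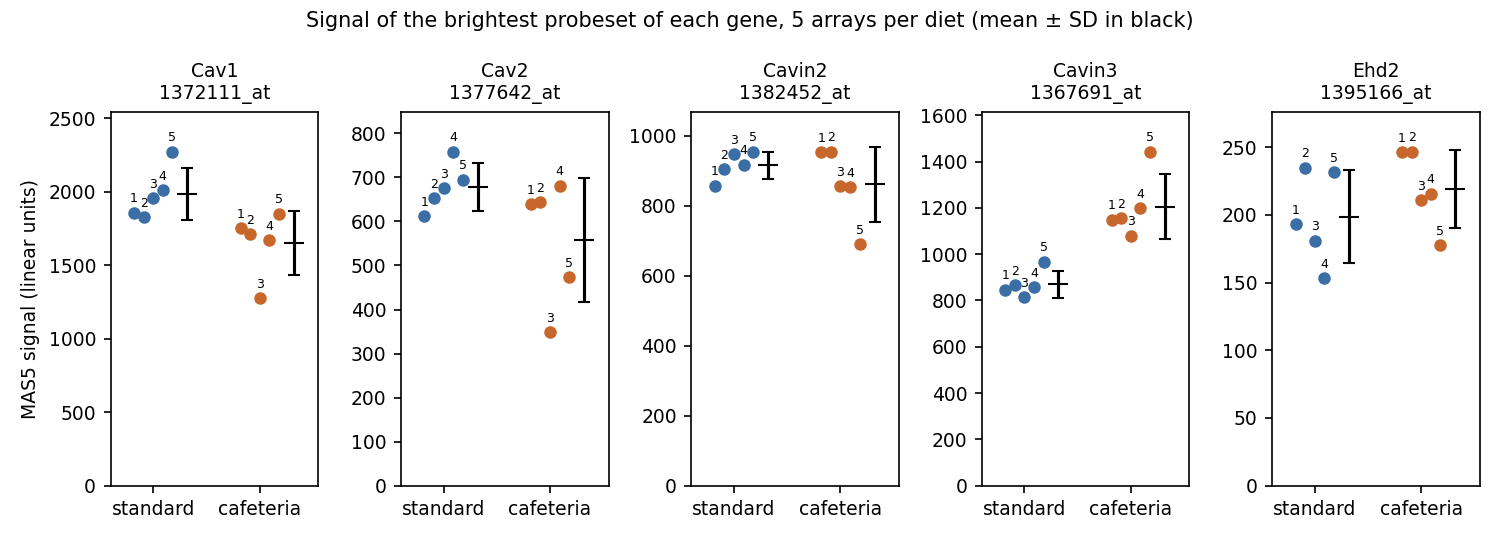
MAS5 signal (linear axis from 0) of the brightest probeset of Cav1, Cav2, Cavin2, Cavin3 and Ehd2 on each array; coloured points are arrays with their replicate number, and the black mark and bar are mean and SD of 5 arrays. Cavin3 is the panel in which the diets do not overlap, from 813 to 968 in the standard and 1079 to 1443 in the cafeteria arrays.

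The caveolins did not share the direction of Cavin3 in their brightest probesets. Cav1, the main caveolin outside muscle, read 1859, 1828, 1958, 2013 and 2275 in standard replicates 1 to 5 with probeset 1372111_at. In the cafeteria group the same probeset read 1755, 1711, 1278, 1669 and 1852. It averaged 1986 ± 177 (SD, n = 5) in the standard and 1653 ± 220 (SD, n = 5) in the cafeteria group, so the cafeteria mean was lower, and 4 of the 5 cafeteria arrays lay below the lowest standard array. The cafeteria minus standard difference was −0.27 on the log2 scale (SE 0.109). It was −0.18 without cafeteria replicate 3 and −0.17 in a fit that also held the GAPDH ratio, a measure of RNA quality given below. The other Cav1 probesets differed from this one: 1393281_at was at −0.01 (SE 0.124) and the dimmest, 1370131_at, at 0.28 (SE 0.221), with both diets overlapping. Over the 10 arrays, with the diet means removed, 1372111_at correlated with 1393281_at at r = 0.61 and with 1370131_at at r = 0.20. The probesets of Cav1 therefore gave no common direction between the diets.

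Cav2, which needs Cav1 to reach the surface in most cells, was read best by 1377642_at. It read 612, 652, 676, 759 and 694 in standard replicates 1 to 5. The cafeteria arrays read 638, 644, 349, 681 and 474, so the cafeteria spread, an SD of 141, exceeded the standard one of 54.3. Cafeteria replicates 3 and 5 were the low arrays, and the other 3 lay within the standard range. On the log2 scale the difference was −0.31 (SE 0.168), and −0.16 without cafeteria replicate 3. Another Cav2 probeset from the same expressed sequence tag, 1390800_a_at, differed from it in cafeteria replicate 3, where it was highest, at 396 against 144 to 290 on the other 9. In cafeteria replicate 5 it was at its lowest, 144. Its deviations from the diet means correlated with those of 1377642_at at r = −0.47. Its log2 difference between the diets was 0.11 (SE 0.233). The remaining Cav2 probesets were dim, with signals of 77.0 to 141 for 1370135_at (difference −0.12, SE 0.138) and of 52.0 to 99.8 for 1386261_x_at (0.11, SE 0.171), and the latter was the member that fell below the filter. The suffix of 1386261_x_at marks probes that may also bind other transcripts.

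**Figure D2:**
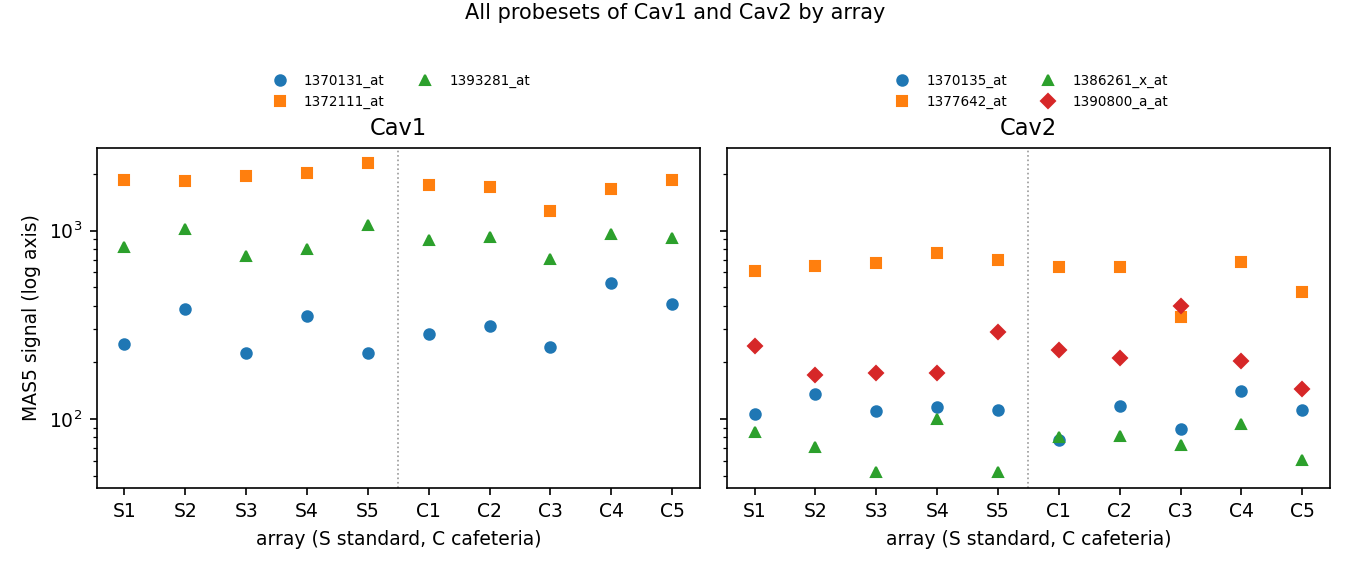
MAS5 signal (log axis) of the 3 probesets of Cav1 and the 4 of Cav2 on each array, standard (S1 to S5) left and cafeteria (C1 to C5) right of the dotted line. In cafeteria replicate 3 the orange Cav2 points (1377642_at) are at their lowest, 349, and the red ones (1390800_a_at) at their highest, 396.

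Cav1 and Cav2 are neighbours on rat chromosome 4, and their brightest probesets both averaged lower in the cafeteria group and had their lowest reading on the same array, cafeteria replicate 3. The 250 bases before each listed start (RefSeq, GRCr8, plus strand, 5′ to 3′) are shown for this pair, since no other member pair is adjacent. They lie at chr4:46606288-46606537 for the first of the listed Cav1 starts and at chr4:46582431-46582680 for Cav2. Capitals mark matches on either strand to GGGCGG, the GC box bound by Sp family factors, or to TATAAA; no match of one overlaps the other.
Cav1: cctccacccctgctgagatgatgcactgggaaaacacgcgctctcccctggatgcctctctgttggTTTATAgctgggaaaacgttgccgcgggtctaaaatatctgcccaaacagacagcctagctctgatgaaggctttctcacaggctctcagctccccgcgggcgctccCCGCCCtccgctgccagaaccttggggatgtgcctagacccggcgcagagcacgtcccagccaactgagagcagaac
Cav2: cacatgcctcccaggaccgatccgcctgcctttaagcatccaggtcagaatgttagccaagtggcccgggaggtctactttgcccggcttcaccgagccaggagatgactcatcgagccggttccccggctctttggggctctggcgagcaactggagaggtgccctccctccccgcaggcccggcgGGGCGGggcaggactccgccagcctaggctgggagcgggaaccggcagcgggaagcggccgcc
Each held 1 match to GGGCGG, and Cav1 also held 1 to TATAAA, on the minus strand. The window of the later listed Cav1 start, not shown, held 0 matches to either. Of all 33469 start regions in the RefSeq table, 30.5% hold GGGCGG and 12.9% hold TATAAA in the same window. Guanine and cytosine made up 60.0% of the Cav1 window and 68.4% of the Cav2 window. The array values do not bear on whether any factor binds there.

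Cavin2, which binds phosphatidylserine and recruits protein kinase C to caveolae, had overlapping diets. Its probeset (1382452_at) read 858, 905, 947, 918 and 955 in standard replicates 1 to 5. In the cafeteria group it read 953, 955, 856, 854 and 691. The lowest array of all was cafeteria replicate 5, the same array on which Cavin3 was highest. Means were 917 ± 38.8 (SD, n = 5) and 862 ± 108 (SD, n = 5), a log2 difference of −0.096 with an SE of 0.0957. Without cafeteria replicate 5 the difference was −0.02, and that of Cavin3 was 0.39. With the GAPDH ratio in the fit it was −0.21.

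Ehd2, which encodes an ATPase that forms rings around membrane necks, was read by a probeset of middling signal, at percentile 55.2 of the array. It read 193, 235, 181, 153 and 231 in standard replicates 1 to 5 (1395166_at). The cafeteria arrays read 246, 247, 211, 216 and 178. The diets overlapped, with means of 199 ± 34.6 (SD, n = 5) and 219.5 ± 28.8 (SD, n = 5). On the log2 scale the difference was 0.14 (SE 0.129). It was 0.057 without standard replicate 4, and it turned to −0.096 in the fit that also held the GAPDH ratio.

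Of the 9 member probesets above the filter, 4 were higher and 5 lower in the cafeteria group, with a median log2 difference of −0.01 against 0.0056 over all probesets tested. By brightest probeset 2 of the 5 genes were higher (Cavin3 and Ehd2) and 3 lower (Cav1, Cav2 and Cavin2). For the other 4 genes the diets overlapped in every probeset; over all probesets tested, 1.45% had all cafeteria signals below all standard signals. Residual SDs on the log2 scale were 0.129 for Cavin3 and 0.139 for Cavin2, both under the median of 0.199 over all probesets tested, 0.171 for Cav1 and 0.291 for Cav2. Whether Cavin3 differed between diets by more than the other coat genes was not tested, because Cavin3 was picked from this contrast.

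**Figure D3:**
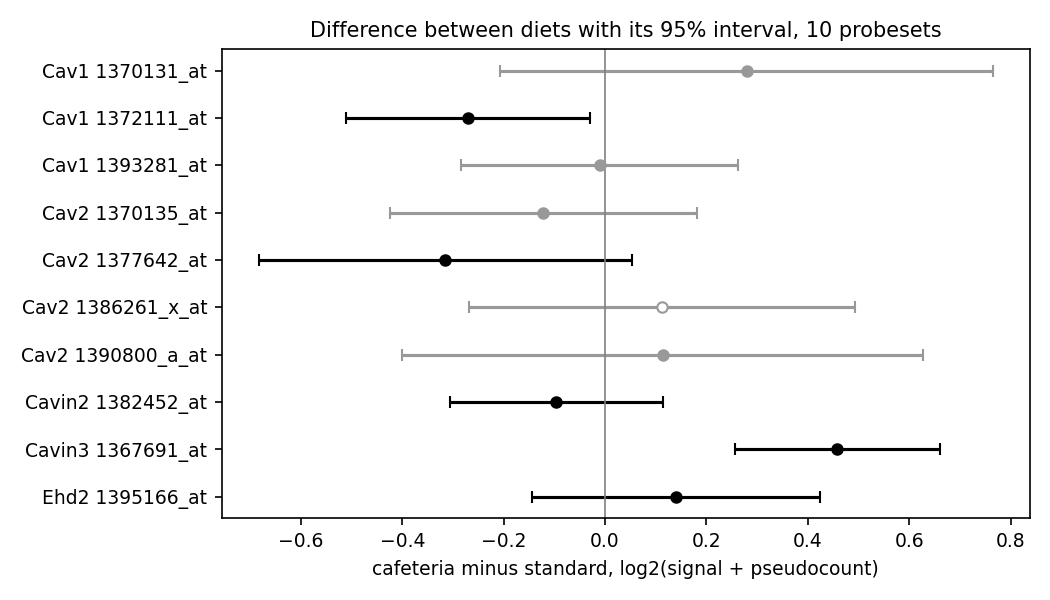
Cafeteria minus standard difference on the log2(signal + pseudocount) scale with its 95% interval from limma, for the 10 probesets; black marks the brightest probeset of a gene, grey the others, and the open circle the probeset below the filter. Intervals are those of the difference between the diet means and are no tests, since Cavin3 was picked from this contrast. Cavin3 sits at 0.46, while the probesets of Cav1 run from −0.27 to 0.28.

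The levels of marker genes of other cells were read on the same arrays. Of 18 endothelial markers 16 had a probeset and 15 were tested, 7 higher and 8 lower in the cafeteria group (median −0.015); the summed signal ran from 20004 to 23468 in the standard and from 18547 to 22263 in the cafeteria arrays. All 14 fibroblast and stellate markers were tested, 8 higher and 6 lower (median 0.11), with summed signals of 9095 to 13033 and 9993 to 13026. The mural list had 5 of 11 higher, with sums of 6260 to 7706 and 6039 to 6766. Sums of these 3 lists overlapped between the diets. No listed probeset of these 3 was at 0, and Cdh5 and Robo4 had no probeset under their symbols. Adipocytes carry many caveolae, and of 10 of their markers 9 had a probeset and 2 were tested. These were Fabp4, which capillary endothelium also expresses, at means of 1064 and 919 (log2 difference −0.21, SE 0.136), and Lipe, at 306 and 336 (0.13, SE 0.234). The summed signal of the adipocyte list ran from 1364 to 1826 in the standard and from 1234 to 1788 in the cafeteria arrays, so the diets overlapped. Of the defining markers, Adipoq averaged 58.7 and 43.0 and Plin1 37.1 and 45.9 in the standard and cafeteria groups, each below the filter. With the mean of the endothelial markers as a covariate the Cavin3 difference was 0.47. That mean was 9.871 in the standard and 9.856 in the cafeteria group, in log2 units. A covariate so alike between the diets can hardly move the difference, so this fit does not test the part of vessels.

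Other marker lists had medians farther from the 0.0056 of all probesets tested, of which 51.4% were higher in the cafeteria group. No list was tested as a set, and 0 of their genes passed limma's adjusted test. The 12 tested immune markers were lower in the cafeteria group (median −0.59), with overlapping summed signals of 5757 to 21401 and 5530 to 21303. Among the 7 tested duct markers 5 were higher (median 0.14), with overlapping sums of 16431 to 19106 and 18449 to 21327. Of the 15 tested acinar markers 4 were higher and 11 lower (median −0.35), with overlapping sums of 10545 to 24651 and 4851 to 24704. GAPDH control probesets read the transcript at its 3 prime and its 5 prime end. The ratio of the former to the latter, which rises with degraded RNA, ran from 1.00 to 1.26 in the standard and from 0.964 to 1.11 in the cafeteria arrays. In a fit that held this ratio the Cavin3 difference was 0.53. The ratio was mostly lower in the cafeteria arrays, so such a fit cannot cleanly separate diet from RNA quality. This holds for every difference given with the ratio in the fit. The part of the endothelial, immune, duct and acinar genes in the Cavin3 difference was not tested.

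Covariation with a vessel and a matrix gene was tested over all 10 arrays. Deviations of log2 values from the diet mean were correlated, and arrays were permuted within each diet (exact two-sided test, 14400 arrangements); 5 arrays per diet are too few for a value within one diet. Pecam1, an adhesion molecule of endothelial junctions, read 546, 605, 671, 733 and 773 in standard replicates 1 to 5 and 726, 661, 494, 568 and 978 in the cafeteria group. Col1a1, the alpha 1 chain of fibrillar collagen I, read 604, 486, 802, 611 and 1015 in the standard and 646, 1120, 585, 745 and 1090 in the cafeteria arrays with its brightest probeset. Neither separated the diets.

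Of the 10 pairs of 5 genes and 2 markers, 0 passed Benjamini-Hochberg adjustment by Pearson's r or by Spearman's rho in the exact permutation test; 3 had an unadjusted p under 0.05 by r and 2 by rho. Cavin3 against Pecam1 gave r = 0.79 (exact permutation p = 0.0251, adjusted p = 0.0837) and rho = 0.52 (exact permutation p = 0.172, adjusted p = 0.573). Leaving out the arrays farthest from the median of Pecam1, cafeteria replicates 3 and 5, took r to 0.32 (exact permutation p = 0.572), so the relation rests on those arrays. Cavin3 against Col1a1 gave r = 0.59 (exact permutation p = 0.0849, adjusted p = 0.212) and rho = 0.41 (exact permutation p = 0.262, adjusted p = 0.638), and r = 0.57 without cafeteria replicates 2 and 5. With the dimmer Col1a1 probeset, 1370864_at, r for Cavin3 was 0.90, given as a value without a test. Like Cavin3, that probeset was highest on replicate 5 of each diet. It read 395 there against 241 to 283 in the standard arrays, and 376 against 228 to 254 in the cafeteria arrays. Its r without those arrays was not computed.

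Cav1 had the lowest adjusted p with both markers. Its brightest probeset against Pecam1 gave r = 0.83 (exact permutation p = 0.0106, adjusted p = 0.053) and rho = 0.79 (exact permutation p = 0.00826, adjusted p = 0.0826). Without cafeteria replicates 3 and 5, r was 0.82 (exact permutation p = 0.0153). Against Col1a1 it gave r = 0.72 (exact permutation p = 0.0105, adjusted p = 0.053) and rho = 0.75 (exact permutation p = 0.0168, adjusted p = 0.084), and r = 0.66 without cafeteria replicates 2 and 5. Its other probesets were less alike Pecam1, at r = 0.36 for 1393281_at and r = 0.14 for 1370131_at. For the brightest probesets of Cav2, Cavin2 and Ehd2 the r with the brightest probeset of either marker lay between −0.32 and 0.27. Other probesets are given as values without a test. The dimmer Cav2 probesets ran from −0.58 (1390800_a_at) to −0.03 (1370135_at) with Pecam1. Against the dimmer Col1a1 probeset, Cavin2 was at −0.40 and Cav2 ran from −0.64 (1386261_x_at) to 0.10 (1370135_at). The value of Cavin2 against Pecam1 turned from −0.32 to 0.86 (exact permutation p = 0.0139 before adjustment) without cafeteria replicates 3 and 5. Whether the r of Cavin3 differs from that of another coat gene was not tested.

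**Figure D4:**
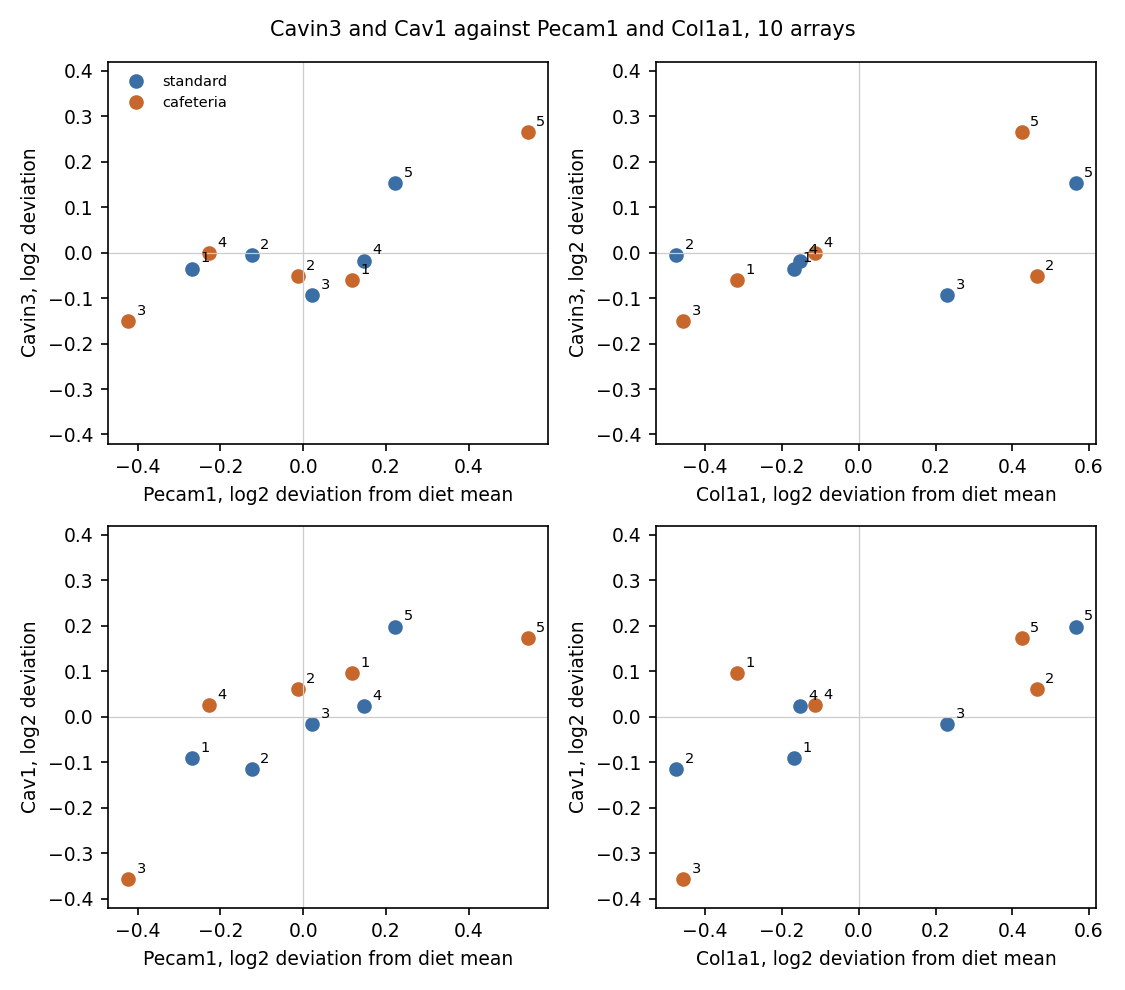
Deviation of Cavin3 (top) and Cav1 (bottom) from the diet mean against that of Pecam1 (left) and the brightest Col1a1 probeset (right), log2 units, 1 point per array with its replicate number. Cafeteria replicates 3 and 5 lie at the ends of the Pecam1 axis; r was 0.79 for Cavin3 and 0.83 for Cav1 on that axis.

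Among themselves the 5 genes gave 10 pairs, and 0 passed adjustment by either coefficient in the exact permutation test (lowest adjusted p = 0.42 by r), with 1 unadjusted p under 0.05 by r and 0 by rho. Cav1 and Cavin3 gave r = 0.71 (exact permutation p = 0.0958) and rho = 0.55 (exact permutation p = 0.109), and Cav1 and Cav2 gave r = 0.66 (exact permutation p = 0.126) and rho = 0.43 (exact permutation p = 0.24). The cavins Cavin2 and Cavin3 gave r = −0.63 (exact permutation p = 0.174) and rho = −0.43 (exact permutation p = 0.277). Without the arrays farthest from the median of Cavin3, cafeteria replicate 5 and standard replicate 3, this r was 0.46, so its sign rests on those arrays. The pair with an unadjusted p under 0.05 was Cavin2 and Ehd2, at r = 0.59 (exact permutation p = 0.0452, adjusted p = 0.42).

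The genes most like Cavin3 across the 10 arrays were sought among 10300 others, by the r of deviations from the diet means of brightest probesets. Members and provisional symbols, such as LOC and RGD, are counted there but were passed over in naming the 5 highest. The genes named were Flot1 (r = 0.98), which encodes the raft scaffold flotillin 1, and Ogdh (0.97), a subunit of the mitochondrial oxoglutarate dehydrogenase. Edem2 (0.97), which trims glycans in endoplasmic reticulum quality control, Napa (0.97), the SNARE adaptor alpha-SNAP, and Eif3b (0.96), a translation initiation subunit, followed. High values were common: 354 genes had r above 0.8 and 223 below −0.8, so a high r does not single a gene out. How many would arise by chance was not computed. Flot1 read 814, 863, 812, 907 and 1161 in standard replicates 1 to 5. In the cafeteria arrays it read 734, 754, 628, 739 and 1203, so replicate 5 was the highest of its diet in both. Between the diets Flot1 did not follow Cavin3, at −0.19 (SE 0.166), and Edem2 was at 0.41 (SE 0.14). Without cafeteria replicate 5 the r of these 5 genes, which were picked for this r, lay between 0.90 and 0.94. Standard replicate 5, the highest standard array for all 5, was kept in those values. For Flot1 rho was 0.87, and r was 0.83 without cafeteria replicate 5 and standard replicate 5. For the other genes r without both arrays was not computed.

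**Figure D5:**
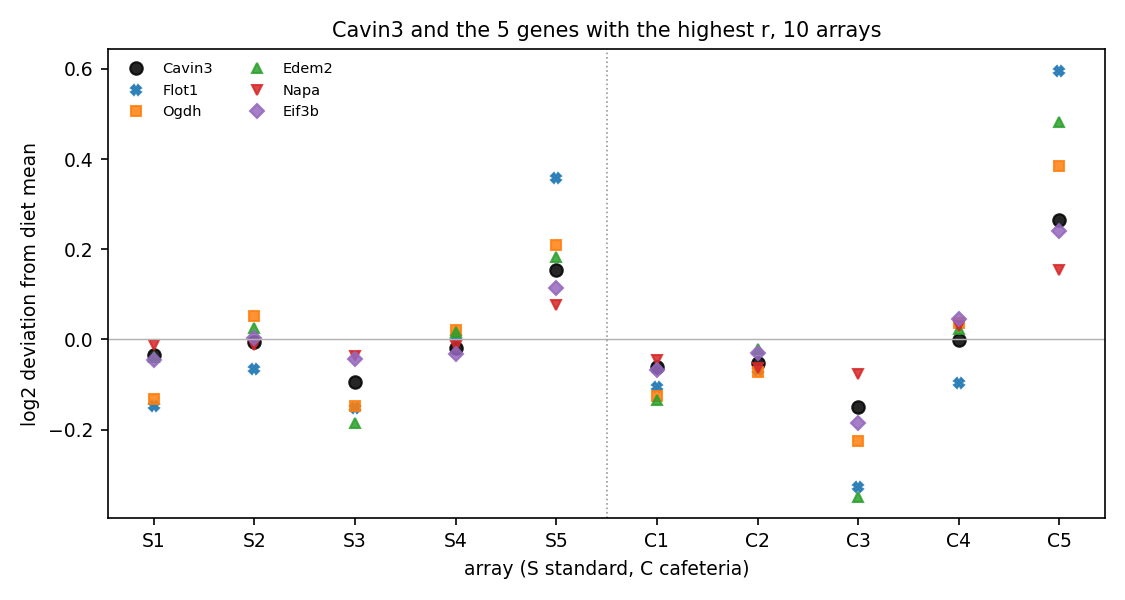
Deviation from the diet mean (log2 units) of Cavin3 (black) and of the 5 genes with the highest r to it, on standard (S1 to S5) and cafeteria (C1 to C5) arrays. Members and provisional symbols were passed over in taking these 5. Replicate 5 is the highest array in each diet for all 6 genes.

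Among 22 other genes of the caveola neck, of rafts and of caveolar cargo, 21 had a probeset and 18 were tested. Of these 10 were higher and 8 lower, 0 passed limma's adjusted test in either direction, and the median log2 difference was 0.022. The lowest p belonged to the membrane scaffold gene Stom (0.32, SE 0.183), Dnm2 (0.29, SE 0.177), whose dynamin cuts vesicles from the membrane, the endothelial nitric oxide synthase gene Nos3 (0.28, SE 0.172), whose product is held in check by caveolin 1, and the fatty acid carrier Cd36 (−0.22, SE 0.158). Diets overlapped for each of these 4. Cd36 was at −0.06 without cafeteria replicate 5, and Dnm2 at 0.07 with the GAPDH ratio in the fit. Nos3 was dim, at 82.4 to 154 in the standard and 102 to 167 in the cafeteria arrays. Cav3, the muscle caveolin, read 12.5 to 37.7 over the 10 arrays and fell below the filter.

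Proteins reported to bind Cavin3, or whose level depends on it, were read in the same fit, and of 11 genes 10 were tested, 5 higher and 5 lower (median 0.041, 0 passed in either direction). The clock repressor gene Per2 read 668, 601, 616, 891 and 460 in standard replicates 1 to 5. In the cafeteria arrays it read 1220, 997, 881, 1110 and 1036, so 4 of 5 lay above the highest standard array. Its log2 difference was 0.71 (SE 0.155; limma adjusted p = 0.398). Cry2, which acts with Per2, was at 0.28 (SE 0.113; limma adjusted p = 0.448), and Cry1 and Per1 were at 0.26 (SE 0.165) and 0.11 (SE 0.141). The protein kinase C genes Prkcd and Prkca were at −0.32 (SE 0.158; limma adjusted p = 0.50) and −0.22 (SE 0.136; limma adjusted p = 0.56), the latter at −0.13 without cafeteria replicate 5. Of the other kinase genes listed, Egfr was at 0.15 (SE 0.204) and Akt1 at −0.03 (SE 0.116).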

How the data were processed

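Islet RNA of 10 independent samples was read on 10 one-colour arrays, 5 per diet. The deposited table holds linear intensity values per probeset that the submitters' processing notes attribute to MAS5, with no version; background settings are not given in the sources used here. The mean after trimming 2% at each end was 500.1 to 500.2 on every array, so a common change in total RNA is not visible, and no detection calls were used. Medians ran from 150.8 to 173.2, and pairs of arrays correlated at r = 0.9585 to 0.9732. The number of arrays limits the precision. The limma p-values rest on the variation between these samples, moderated over all probesets tested, and the permutation p-values on arrangements of these arrays.

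Symbols came from the platform annotation, which gave 1 symbol to 20826 probesets. Signals were analysed as log2(value + 14.15), the pseudocount being the 10th percentile of all values; this understates the change of dim genes. Probesets above the 40th percentile of mean log2 value were fitted with limma 3.58.1 (R 4.3.3, lmFit and eBayes), with Benjamini-Hochberg adjustment at 0.05. A gene is read by its brightest probeset unless another is named. The limma fit and the correlation test were tested on simulated data. Members, lists and tests were chosen with earlier results of these arrays known. Named genes are the members, Pecam1, Col1a1, the 4 genes of lowest p in each pathway list with Per2, Prkcd and Nos3, the 5 genes most like Cavin3, and leading markers; Cavin1 had no probeset. Per1, Cry1, Cav3, Egfr, Akt1, Fabp4, Lipe and Emp1 fall outside this rule and were named after their values were seen. Glial and beta cell markers were read too: 0 of 1 glial and 5 of 7 beta cell markers tested were higher in the cafeteria group. Same-numbered arrays did not deviate together in every pair (r from −0.002 to 0.296), so numbers were not taken as pairs. For Cavin3 itself the residual SD fell from 0.129 to 0.0481 when replicate number was added to the fit. The residual SD also fell for all 5 genes most like Cavin3, which were picked for tracking it. It went from 0.288 to 0.112 for Flot1, from 0.196 to 0.0806 for Ogdh and from 0.235 to 0.126 for Edem2. For Napa it went from 0.0743 to 0.0412, and for Eif3b from 0.121 to 0.074. Other named genes went either way, and that of Cry2 rose from 0.179 to 0.238. Correlations centred on diet alone still carry any pattern shared by same-numbered arrays, and its source was not tested.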

Additional observations from a re-analysis of the deposited data

Results flagged for a closer look

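Of 50 sets of 5 arrays examined (25 probesets in each diet), 7 met Dixon's criterion for 1 array that stands away from its group, which chance alone meets in about 1 set in 20, or 2.5 here. These sets are not independent: 5 of the probesets were picked for tracking Cavin3, and some read the same gene. Setting 7 against 2.5 is therefore no test of an excess. The sets were examined on the log2 scale, and the values are signals. In the cafeteria group, replicate 3 was low for Cav1 probeset 1372111_at, at 1278 (others 1669 to 1852), and for Cav1 probeset 1393281_at, at 707 (others 896 to 955). Cafeteria replicate 5 was high for Flot1, at 1203 (others 628 to 754), and low for Cd36, at 268 (others 428 to 504). Among standard arrays, Napa stood at 3708 in replicate 5 (others 3431 to 3488), Nos3 at 154 in replicate 3 (others 82.4 to 97.7), and Stom at 174 in replicate 1 (others 266 to 303).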

How the results depend on the processing

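The Cavin3 difference was positive under all 22 other settings run, from 0.39 (without cafeteria replicate 5) to 0.53, and moved by less than its SD. Some of these settings cannot change it: other filters, the trended variance, the replicate block and the mean over its single probeset all left 0.458. Cavin3 was also picked from this contrast, so the count of positive settings is no independent support. The count of probesets past the threshold, 0 as reported, ran from 0 to 1 when single arrays were left out; the 1 was Emp1 without standard replicate 2. Counts of higher list members were 2 of 8 (neck and cargo) and 3 of 6 (Cavin3 partners) with the filter at the 70th percentile, which tests fewer genes. With a replicate block 0 probesets passed, r of Cavin3 with Pecam1 was 0.373, and r with Col1a1 turned to −0.096. Of the 10 member pairs, 1 fell under the threshold by permutation of residuals, Cav1 and Cav2 at r = 0.955. In that fit the residuals of same-numbered arrays mirror each other, and the permutation treated them as independent. The permutation therefore cannot decide whether this pair passes. The cause of these changes was not tested. Only 2 of 5 standard arrays correlated best with the cafeteria array of their own number. Leaving out single arrays gave r from 0.496 to 0.844 for Pecam1 and from 0.458 to 0.75 for Col1a1, and the pair with Pecam1 passed under none of the 19 other settings run (lowest adjusted p = 0.0597). Of 504 values of other named probesets, 502 moved by less than 1 SD, a count that includes the settings that cannot change a difference. Ehd2 (−0.096) and Cd36 (−0.53) moved more, each with the GAPDH ratio as a covariate. Without detection calls, the depth of dim probesets such as 1386261_x_at is unknown.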
